A study of Danio rerio with 16 samples.

Results

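The response of control morphant zebrafish embryos to 2,3,7,8-tetrachlorodibenzo-p-dioxin (TCDD) was taken as the 4 RNA-seq libraries of control morphants exposed to TCDD against the 4 of control morphants kept in the vehicle, dimethyl sulfoxide (DMSO). These are 8 of the 16 libraries of the study, chosen by their labels, and 20630 genes passed a filter on low counts and were tested. The other 8 libraries carry a morpholino against the long noncoding RNA slincR in place of the control morpholino. Every library was made from a pool of 20 whole embryos of the Tropical 5D line collected at 48 h post fertilization, and poly-A RNA was sequenced. From about 6 h post fertilization the embryos spent 1 h in 1 ng/mL TCDD or in 0.1% DMSO. All 8 libraries compared here come from embryos that received a control morpholino, an antisense oligomer given as the injection control, so the comparison holds the injection constant and has no uninjected group.

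TCDD binds the aryl hydrocarbon receptor (AHR), a ligand-activated transcription factor that moves to the nucleus, pairs with ARNT and switches on genes for the detoxification of foreign compounds. AHR repressor proteins and TIPARP, themselves products of target genes, limit the response. In zebrafish the receptor Ahr2 mediates most of the developmental toxicity of TCDD, which includes defects of the heart, the jaw and the fins.

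Total gene counts of the 8 libraries lay between 14977267 and 19446568. In a principal component analysis of all 16 libraries, DMSO replicate 4 of the control morphants was the extreme one, at 63.4 on the first axis where the other 15 lay between -19.4 and 17.7. The share of reads in no gene was 13.4% in TCDD replicate 3, and 15.8% to 16.1% in the other TCDD libraries, against 12.8% to 15.0% in the DMSO libraries. Levels are given as CPM (counts scaled to library size) and changes as log2 fold changes of TCDD over DMSO with their standard error (SE). Adjusted p-values come from edgeR's quasi-likelihood test over all 20630 genes, with a threshold of 0.05. The labels call the replicates biological, without saying whether the pools came from separate spawnings.

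At 48 h few genes passed the threshold, and the change was large for a few of them. An unadjusted p under 0.05 by edgeR's test was seen for 2313 of the 20630 genes tested. In simulated counts the fit recovered 67 of 100 genes changed 2-fold and 31 of 100 changed 1.5-fold. Changes of such sizes can thus be missed. The simulated counts were drawn independently for each library, with no library set apart from its group, unlike the real ones. Of 20630 genes, 128 passed the threshold (0.62%). Of these, 97 were higher (0.47%) and 31 lower (0.15%) with TCDD. Only 45 changed at least 2-fold (0.218%), 41 of them upward. At least 10-fold increases were seen for 8 genes and at least 4-fold increases for 13, whereas 1 gene was at least 4-fold lower. Among the 8, ENSDARG00000009121, rests on 51 counts with TCDD and 1 with DMSO. The median log2 fold change was 0.88 among genes that rose and -0.58 among genes that fell, against 0.001 over all genes tested. The count changed when single libraries were left out, which also leaves fewer samples for the test. It was 71, 70, 119 and 78 without TCDD replicates 1, 2, 3 and 4. Without DMSO replicates 1, 2, 3 and 4 it was 104, 103, 155 and 100. When the percentage of reads outside genes entered the fit as a covariate, 283 genes passed, 145 higher and 138 lower, and 114 of the 128 were among them.

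**Figure D1:**
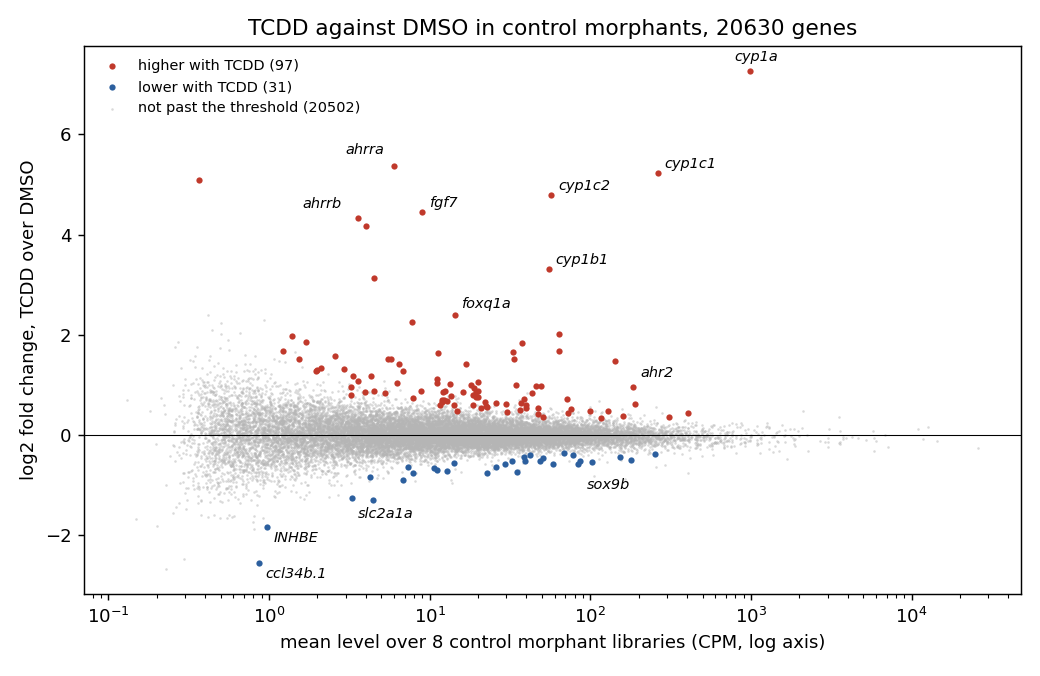
Log2 fold change of TCDD over DMSO in control morphants (vertical) against the mean level in CPM over the 8 libraries (horizontal, log axis), 1 point per gene tested. The 97 genes that rose reach 7.27, at cyp1a, and the 31 genes that fell reach -2.56, at ccl34b.1.

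The genes that rose took up more of the counted reads in TCDD embryos. Their summed level was 6816.8, 6937.9, 7000.4 and 6897.6 CPM in TCDD embryos, against 2586.6, 2557.8, 2672.6 and 2580.3 CPM in DMSO embryos. For the genes that fell the sums were 1245.2 to 1261.9 CPM in TCDD embryos and 1627.9 to 1889.1 CPM in DMSO embryos. These sums describe genes chosen by the same comparison. The 4 libraries of one group did not overlap the 4 of the other for 94 of the 97 genes that rose and 29 of the 31 that fell. That separation too is a description, since the genes were chosen by the same comparison. Over all genes tested, 2.93% had every TCDD library above every DMSO library and 2.66% had every TCDD library below, 5.58% together. Since whole embryos were pooled, fewer cells of a type and less RNA per cell cannot be told apart for any gene below. Counts of called genes per list below stand beside 0.62% called over all genes tested. In a list of 60 genes, 1 call is already 1.67%, and no list was tested as a set.

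Among 12 tested genes for AHR receptors, their partners and their repressors, 4 rose and none fell. The receptor gene ahr2 (ENSDARG00000021833) measured 247, 262, 218 and 253 CPM in TCDD embryos and 136, 119, 129 and 122 CPM in DMSO embryos. Every TCDD library was above every DMSO library, with a log2 fold change of 0.96 ± 0.08 (adjusted p = 2.82e-08). The repressor gene ahrra was almost silent without TCDD. It had 13.3, 7.67, 14.9 and 10.8 CPM in TCDD embryos and 0.279, 0.205, 0.461 and 0.182 CPM in DMSO embryos, a 41.4-fold difference of the means (log2 fold change 5.36 ± 0.31, adjusted p = 1.77e-11). The DMSO value rests on 19 counts over 4 libraries. Its paralog ahrrb had 6.89, 6.74, 5.65 and 8.17 CPM in TCDD embryos and 0.502, 0.205, 0.592 and 0.0605 CPM in DMSO embryos (4.33 ± 0.37, adjusted p = 4.47e-08). The groups were separate for both repressors. The ADP-ribosyltransferase gene tiparp rose by 0.73 ± 0.11 (adjusted p = 3.69e-04), with TCDD libraries at 84.5 to 96.8 CPM and DMSO libraries at 51.1 to 59.07 CPM. The other receptor and partner genes did not pass. The partner gene arnt had 0.51 ± 0.17 (adjusted p = 0.234) and the receptor gene ahr1b -0.06 ± 0.11 (adjusted p = 0.886).

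The CYP1 monooxygenases, which oxidise planar aromatic compounds and are the standard readout of AHR activity, included cyp1a, the gene with the largest log2 fold change of all 128 called. Of 5 genes tested, 4 rose. Levels of cyp1a (ENSDARG00000098315) were 1837, 1986, 2038 and 1937 CPM in TCDD embryos and 9.99, 13.8, 14.2 and 12.7 CPM in DMSO embryos. The groups were far apart, and the TCDD mean was 154-fold the DMSO mean, a log2 fold change of 7.27 ± 0.13 (adjusted p = 2.73e-22). For cyp1c1 the levels were 490, 477, 513 and 568 CPM in TCDD embryos and 13.1, 13.9, 13.4 and 14.3 CPM in DMSO embryos, and the change was 5.23 ± 0.12 (adjusted p = 2.48e-20). For cyp1c2 they were 122, 109, 114 and 97.0 CPM in TCDD embryos and 3.85, 4.06, 3.95 and 4.06 CPM in DMSO embryos, with 4.79 ± 0.15 (adjusted p = 7.14e-17). Both groups were tight and far apart. The gene cyp1b1 had 103, 99.6, 88.1 and 111 CPM in TCDD embryos and 11.05, 9.65, 10.3 and 9.26 CPM in DMSO embryos (3.32 ± 0.13, adjusted p = 8.51e-15). The remaining family member, cyp1d1, had a mean of 19.4 CPM in TCDD embryos and 19.8 CPM in DMSO embryos (-0.03 ± 0.10, adjusted p = 0.956). Next to the CYP1 genes, 33 other cytochrome P450 genes and redox partners included 2 that rose and none that fell. Their median was 0.03. One was cyb5a, for the electron donor cytochrome b5, at 230, 208, 208 and 188 CPM in TCDD embryos and 67.3, 65.0, 86.0 and 82.2 CPM in DMSO embryos, with 1.47 ± 0.12 (adjusted p = 6.74e-09). The other was cyp24a1, for the enzyme that inactivates vitamin D, at 1.52 to 3.73 CPM in TCDD embryos and 0.893 to 1.33 CPM in DMSO embryos. Its change of 1.29 ± 0.29 (adjusted p = 0.0336) was lost under 11 of 17 alternative settings, which changed the normalisation, the filter, the tool, the design or left out a library.

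Conjugating enzymes, which attach glucuronic acid or sulfate to oxidised compounds, had 4 genes higher and 1 lower of 27 tested. The glucuronosyltransferase gene ugt1b1 measured 94.4, 97.3, 116 and 104 CPM in TCDD embryos and 23.8, 26.6, 24.9 and 26.3 CPM in DMSO embryos (2.02 ± 0.10, adjusted p = 4.66e-13). The relative ugt1b5 rose by 1.68 ± 0.10 (adjusted p = 5.15e-11), with TCDD libraries at 88.0 to 105 CPM and DMSO libraries at 27.0 to 34.9 CPM. Genes of the zebrafish ugt1 clusters share exons at their ends, so reads may be split between them and single members are uncertain. The sulfotransferase gene sult6b1 had 46.4, 43.2, 59.5 and 52.4 CPM in TCDD embryos and 15.2, 18.99, 13.9 and 15.9 CPM in DMSO embryos, with no overlap (1.65 ± 0.16, adjusted p = 2.67e-07). A smaller rise was that of ugt1a6 (0.80 ± 0.12, adjusted p = 4.79e-04). The lower gene, ugt5g1, had -0.56 ± 0.13 (adjusted p = 0.0396), and its call was lost under 11 of 17 alternative settings. Among 20 efflux and uptake transporter genes, slco2a1, a prostaglandin carrier, rose by 1.52 ± 0.19 (adjusted p = 2.95e-05), with 6.70, 8.65, 9.26 and 8.06 CPM in TCDD embryos and 2.57, 2.46, 2.76 and 3.63 CPM in DMSO embryos.

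**Figure D2:**
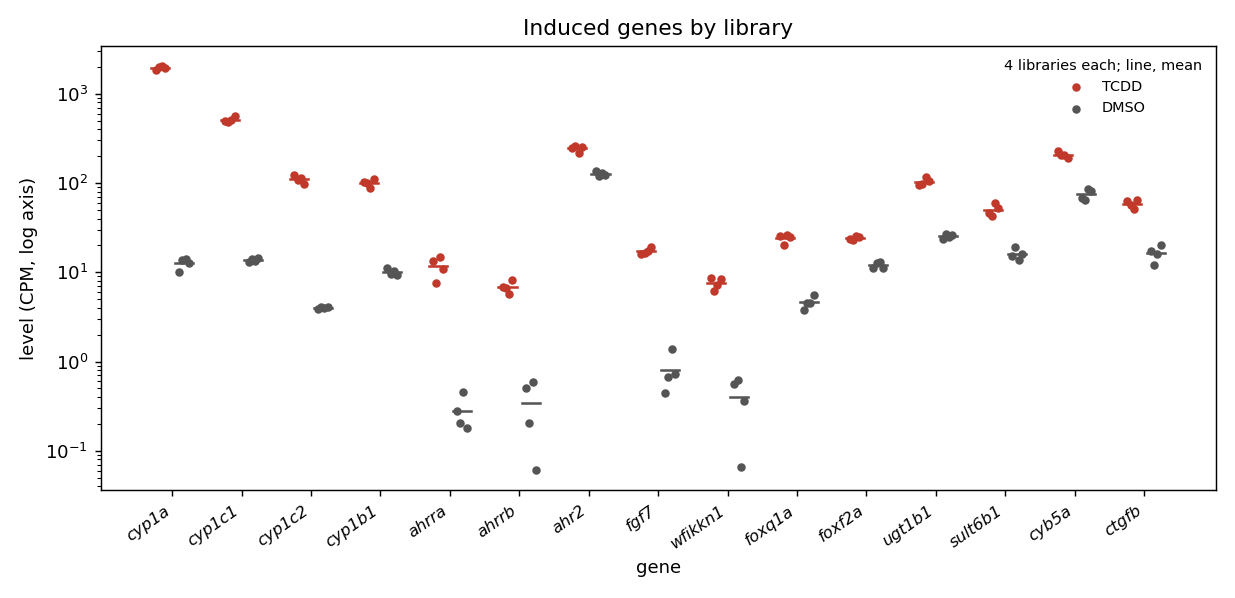
Level in CPM (log axis) of 15 genes that rose, in the 4 TCDD libraries (red, left in each pair) and the 4 DMSO libraries (grey, right) of control morphants, with lines for group means. The genes shown were picked, and the 3 genes that rose with overlapping groups are not among them. No gene shown has overlapping groups, and cyp1a spans the widest gap, 1837 to 2038 CPM against 9.99 to 14.2 CPM.

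Both zebrafish paralogs of Nrf2, nfe2l2a and nfe2l2b, regulators of the oxidative stress response, were higher, and they were the 2 called genes of 43 glutathione and Nrf2 genes (median 0.11). Levels of nfe2l2a were 222, 249, 212 and 232 CPM in TCDD embryos and 152, 124, 154 and 168 CPM in DMSO embryos (0.61 ± 0.10, adjusted p = 0.00127). Levels of nfe2l2b were 10.3, 9.42, 8.81 and 10.3 CPM in TCDD embryos and 4.80, 2.87, 3.55 and 4.84 CPM in DMSO embryos (1.27 ± 0.19, adjusted p = 4.85e-04). The heme oxygenase gene HMOX1 (ENSDARG00000027529), in the acute phase and iron list, had 0.67 ± 0.17 (adjusted p = 0.0679).

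Secreted signals changed in both directions. Of 42 genes for fibroblast growth factors and their receptors, fgf7 alone passed. It had 16.0, 16.5, 17.4 and 19 CPM in TCDD embryos and 0.446, 0.667, 1.38 and 0.726 CPM in DMSO embryos, 54 counts in all over the DMSO libraries (4.44 ± 0.23, adjusted p = 1.47e-12). Of the 42 log2 fold changes 31 were positive (median 0.13). Every TCDD library was above every DMSO library for 8 of the 42 and below for 1, against 2.93% and 2.66% over all genes tested. Of 57 genes for transforming growth factor beta, bone morphogenetic proteins, activins and their inhibitors, 3 rose and 1 fell. The highest was wfikkn1, whose mammalian relatives bind myostatin, at 8.71, 6.18, 7.12 and 8.49 CPM in TCDD embryos and 0.558, 0.616, 0.0658 and 0.363 CPM in DMSO embryos (4.17 ± 0.30, adjusted p = 1.92e-09). The genes bmp6 and bmp4 rose by 0.66 ± 0.13 (adjusted p = 0.0161) and 0.36 ± 0.08 (adjusted p = 0.0275). The call of bmp6 was lost under 5 and that of bmp4 under 8 of 17 alternative settings. The lower gene was INHBE (ENSDARG00000100986), annotated as an activin beta subunit, at 0.520, 0.618, 0.169 and 0.381 CPM in TCDD embryos and 1.62, 1.54, 1.18 and 1.76 CPM in DMSO embryos (-1.84 ± 0.37, adjusted p = 0.0157). That rests on 30 counts with TCDD and 106 with DMSO, and was lost under 5 settings. Among 45 Wnt pathway genes the only call was sfrp2, for a secreted Wnt antagonist, at -0.58 ± 0.12 (adjusted p = 0.0215), lost under 6 settings.

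Among 59 forkhead, sox and related transcription factor genes, 3 rose and 1 fell (median -0.001). The gene foxq1a had 25.6, 20.3, 25.9 and 24.7 CPM in TCDD embryos and 3.80, 4.52, 4.54 and 5.51 CPM in DMSO embryos (2.39 ± 0.14, adjusted p = 2.01e-11). Its neighbour foxf2a, which in vertebrates acts in the mesenchyme of the face and vessels, had 23.4, 23.0, 25.4 and 24.7 CPM in TCDD embryos and 11.2, 12.8, 13.2 and 11.14 CPM in DMSO embryos (0.995 ± 0.11, adjusted p = 5.07e-06). The somite gene meox1 rose by 0.88 ± 0.14 (adjusted p = 0.00121), to 22.9 to 27.4 CPM in TCDD embryos against 10.9 to 18.6 CPM in DMSO embryos. The gene sox9b (ENSDARG00000043923), needed for cartilage and fin development, measured 62.9, 78.8, 72.4 and 68.4 CPM in TCDD embryos and 115, 89.0, 93.3 and 109 CPM in DMSO embryos. The 2 groups did not overlap, and sox9b was lower by 0.52 ± 0.09 (adjusted p = 0.00442), a call kept under all 17 alternative settings.

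Some of the called genes lie beside each other. Of 128 called genes, 114 could be placed in the RefSeq gene order of the GRCz12tu assembly, which differs from the GRCz10 build of the files, so the order is used without coordinates. In that order 3 pairs of called genes are direct neighbours among protein-coding genes. The gene pairs are cyp1c1 with cyp1c2 and cyp1c2 with gchfr on chromosome 17, and foxf2a with foxq1a on chromosome 2. All 5 genes rose. The gene gchfr, for a regulator of tetrahydrobiopterin synthesis and chosen after its values were seen, rose by 1.03 ± 0.24 (adjusted p = 0.0397), and its call was lost under 9 of 17 settings.

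A few matrix genes rose and a few bone genes fell. Of 77 collagen and matrix glycoprotein genes, 3 rose and none fell, and 57 of the 77 log2 fold changes were positive (median 0.12). Their mean log2 level was 5.849 to 5.939 in TCDD libraries and 5.597 to 5.866 in DMSO libraries, which overlap. The lowest was DMSO replicate 4. Their summed level did not overlap, at 17520 to 19110 CPM in TCDD embryos and 15930 to 17170 CPM in DMSO embryos. The gene col12a1a had 473, 446, 508 and 454 CPM in TCDD embryos and 348, 365, 366 and 305 CPM in DMSO embryos (0.44 ± 0.08, adjusted p = 0.00357). For TNC (ENSDARG00000078362), a tenascin, the change was 0.47 ± 0.10 (adjusted p = 0.0206), lost under 5 settings, and for thbs1b, a thrombospondin, 0.35 ± 0.08 (adjusted p = 0.0336), lost under 7. Of 38 matrix metalloproteinase, ADAMTS and inhibitor genes, mmp9 and mmp13a rose. The level of mmp9 was 14.4, 18.7, 16.0 and 10.45 CPM in TCDD embryos and 9.77, 6.26, 5.99 and 6.84 CPM in DMSO embryos, with TCDD replicate 4 nearest to the DMSO libraries (1.05 ± 0.17, adjusted p = 0.00144). For mmp13a, 1.08 ± 0.24 (adjusted p = 0.0361) was lost under 11 settings. Of 19 bone genes, 3 (15.8%) fell and none rose, against 0.62% called over all genes tested. This share is a description, since the list was chosen with earlier results of these data known. Of the 19 log2 fold changes 12 were negative (median -0.076). Their summed level overlapped, at 3502 to 3791 CPM in TCDD embryos and 3435 to 4134 CPM in DMSO embryos. The gene postna, for periostin, had 23.0, 19.04, 16.5 and 22.5 CPM in TCDD embryos and 32.3, 33.98, 27.4 and 33.5 CPM in DMSO embryos (-0.65 ± 0.11, adjusted p = 0.00199). The hypertrophic cartilage and bone collagen gene col10a1a had -0.44 ± 0.09 (adjusted p = 0.0172), lost under 6 settings. IFITM5 (ENSDARG00000105153), annotated as a bone mineralisation gene, had -0.64 ± 0.15 (adjusted p = 0.0485), lost under 13. Of 30 cartilage genes sox9b was the only call.

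**Figure D3:**
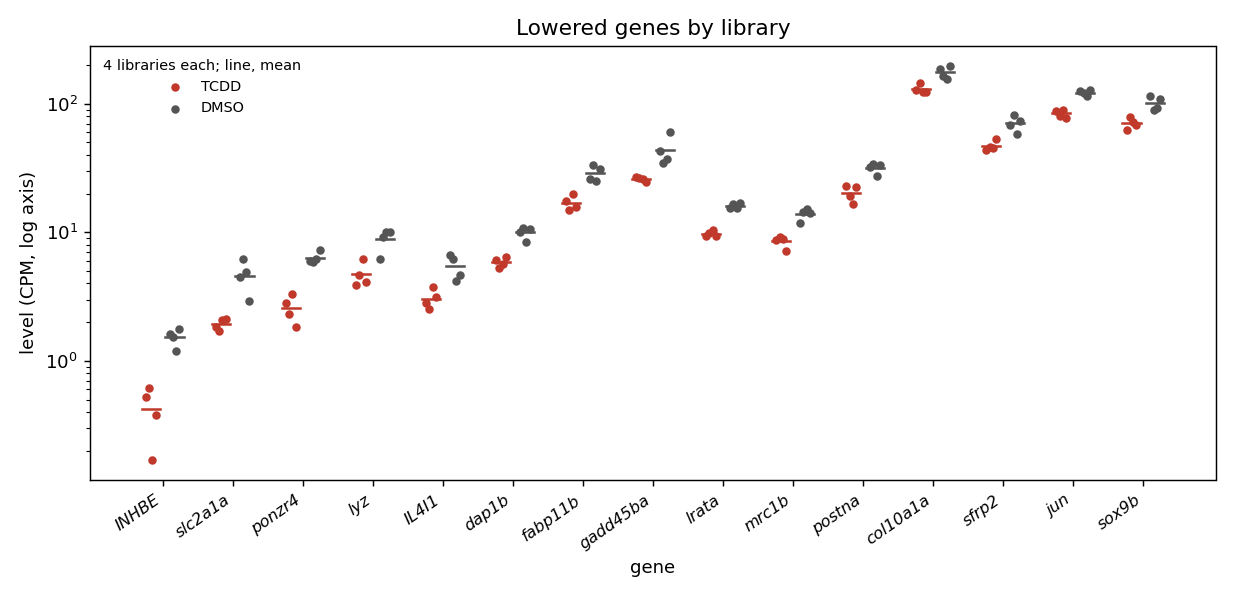
Level in CPM (log axis) of 15 genes that fell, in the 4 TCDD libraries (red, left in each pair) and the 4 DMSO libraries (grey, right) of control morphants, with lines for group means. The genes shown were picked, and ccl34b.1 and krt15, the 2 genes that fell with overlapping groups, are not among them. No gene shown has overlapping groups, and most shifts are small, such as jun at 78.0 to 89.6 CPM against 114 to 127 CPM.

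Several genes of metabolism were called. The gene pck1, for the gluconeogenic enzyme phosphoenolpyruvate carboxykinase, had 64.4, 63.3, 57.8 and 58.3 CPM in TCDD embryos and 30.3, 28.1, 26.8 and 38.9 CPM in DMSO embryos (0.98 ± 0.11, adjusted p = 2.52e-06). The hypoxia factor gene epas1b rose by 0.66 ± 0.13 (adjusted p = 0.00864), lost only when the 8 control morphant samples were fitted alone (adjusted p = 0.0608). The phosphofructokinase gene pfkpb rose by 0.60 ± 0.14 (adjusted p = 0.0474), lost under 11 of 17 settings. The glucose transporter gene slc2a1a had 1.82, 1.70, 2.09 and 2.12 CPM in TCDD embryos and 4.46, 6.21, 4.87 and 2.91 CPM in DMSO embryos, a change of -1.26 ± 0.25 (adjusted p = 0.0128) that was lost without TCDD replicate 1, TCDD replicate 2 or DMSO replicate 2 (adjusted p up to 0.0645). These 4 were the calls among 77 genes of glucose transport, glycolysis and hypoxia. Of 47 retinoid genes, lrata, for the enzyme that stores retinol as an ester, was lower, at 9.30, 9.83, 10.50 and 9.37 CPM in TCDD embryos and 15.6, 16.5, 15.3 and 16.8 CPM in DMSO embryos (-0.72 ± 0.12, adjusted p = 0.00169). Of 45 genes for lipid binding and carriage, the lipid droplet gene plin6 rose by 0.86 ± 0.13 (adjusted p = 6.02e-04). In the same list fabp11b, for a fatty acid carrier, had 17.6, 15.0, 19.7 and 15.6 CPM in TCDD embryos and 26.1, 33.15, 25 and 30.9 CPM in DMSO embryos (-0.76 ± 0.12, adjusted p = 4.79e-04).

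Of 37 neutrophil and macrophage genes 3 (8.11%) were called, and of 34 chemokine and cytokine genes 3 (8.82%), against 0.62% of all genes tested. These shares are a description, since the lists were chosen with earlier results of these data known. Negative log2 fold changes were seen for 27 of the 37 genes (median -0.16) and 14 of the 34 (median 0.12). Of the 37 genes 2 rose, both metalloproteinases named above, and the lysozyme gene lyz fell by 0.90 ± 0.21 (adjusted p = 0.0423), lost under 11 settings. Summed over the 37 genes the level was 311 to 348 CPM in TCDD embryos and 326 to 376 CPM in DMSO embryos. Of the 34 genes the receptor gene ccr9a rose by 1.98 ± 0.45 (adjusted p = 0.0375), lost under 10 settings, while cxcl12b fell by 0.53 ± 0.13 (adjusted p = 0.0487), lost under 12. The chemokine gene ccl34b.1 had 0.585, 0.257, 0.169 and 0 CPM in TCDD embryos and 0.558, 1.64, 1.51 and 2.18 CPM in DMSO embryos. Its groups overlapped, and the change of -2.56 ± 0.58 (adjusted p = 0.0374) was lost under 11 settings.

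Markers of single tissues were mostly not called. Of 37 erythroid genes cahz, a carbonic anhydrase of red cells, fell by 0.50 ± 0.11 (adjusted p = 0.0362), lost under 7 settings, and the summed level of the list was 2482 to 2859 CPM in TCDD embryos and 2878 to 3414 CPM in DMSO embryos. Those ranges lie close together at 2859 and 2878 CPM, and the summed levels of 6 of the 46 lists did not overlap between the groups, 5 of them higher in TCDD embryos. The mean log2 level of the 37 erythroid genes overlapped, at 3.875 to 4.051 in TCDD libraries and 4.0 to 4.234 in DMSO libraries. Of 49 heart genes bmp4 and vcanb rose, the proteoglycan gene vcanb by 0.37 ± 0.09 (adjusted p = 0.0405), lost under 9. Of 60 neuronal genes the serotonin transporter gene slc6a4a rose by 0.75 ± 0.13 (adjusted p = 0.00199). Of 61 skin genes the keratin gene krt1-19d rose by 1.02 ± 0.17 (adjusted p = 0.00157), while krt15 fell by 0.58 ± 0.13 (adjusted p = 0.0266), lost under 6. The groups of krt15 overlapped, with TCDD replicate 3 at 77.36 CPM and DMSO replicate 1 at 76.73 CPM. The bone gene postna, which fell as above, is counted among the 61 only because the name of its paralog postnb was matched without its suffix. Of 37 pronephros and ponzr genes ponzr4 fell by 1.297 ± 0.27 (adjusted p = 0.0219), with 2.80, 2.32, 3.33 and 1.85 CPM in TCDD embryos and 5.97, 5.85, 6.19 and 7.26 CPM in DMSO embryos. Its call was lost under 4 settings.

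By edgeR's test no member passed in 22 of the 46 lists, among them endothelium, skeletal muscle, lens, photoreceptors, liver, DNA replication, cholesterol synthesis, insulin-like growth factors, interferon, p53 and the circadian clock. Of the 815 genes tested in these lists, 143 had an unadjusted p under 0.05, DESeq2 called 13 and limma-voom 0. Over all 20630 genes tested, 2313 had an unadjusted p under 0.05, DESeq2 called 275 and limma-voom 115. Some members had counts too low to be tested, 22 interferon genes beside 18 tested, 16 photoreceptor genes beside 44, and 14 lens genes beside 46. Of the 43 named genes that edgeR did not call, 18 passed under at least 1 of the 17 settings, among them both TTN genes of the muscle list without DMSO replicate 2. Where single genes were below the threshold some lists were lopsided, against 49.9% negative log2 fold changes over all genes. Of 78 DNA replication and mitosis genes 66 were negative (median -0.14), and of 46 lens genes 41 (median -0.14). In a fit with that library share (reads outside genes) as a covariate these were 55 of 78 (median -0.11) and 33 of 46 (median -0.07). The mean log2 level of the 78 genes was 4.711 to 4.919 in TCDD libraries and 4.846 to 4.978 in DMSO libraries. For the 46 lens genes it was 4.998 to 5.276 in TCDD libraries and 5.184 to 5.374 in DMSO libraries. In both lists the groups overlap. Of 28 cholesterol synthesis genes 21 were negative (median -0.21), and of 22 insulin-like growth factor genes 18 were positive (median 0.23). For both lists the fit with the covariate is not given here. The mean log2 level of the 22 genes was 4.828 to 4.974 in TCDD libraries. It was 4.56 in DMSO replicate 4 and 4.711 to 4.77 in the other DMSO libraries. The cytosolic ribosomal proteins had a median of -0.07, which turned to 0.08 with that covariate. The genes with the smallest p in the lists without a call had adjusted p-values of 0.0679 to 0.572. Values among them were -0.53 ± 0.18 for SQLE (ENSDARG00000079946) of cholesterol synthesis, -0.30 ± 0.09 for PCNA (ENSDARG00000054155) of replication, and 0.34 ± 0.09 for IGFBP5 (ENSDARG00000025348).

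**Figure D4:**
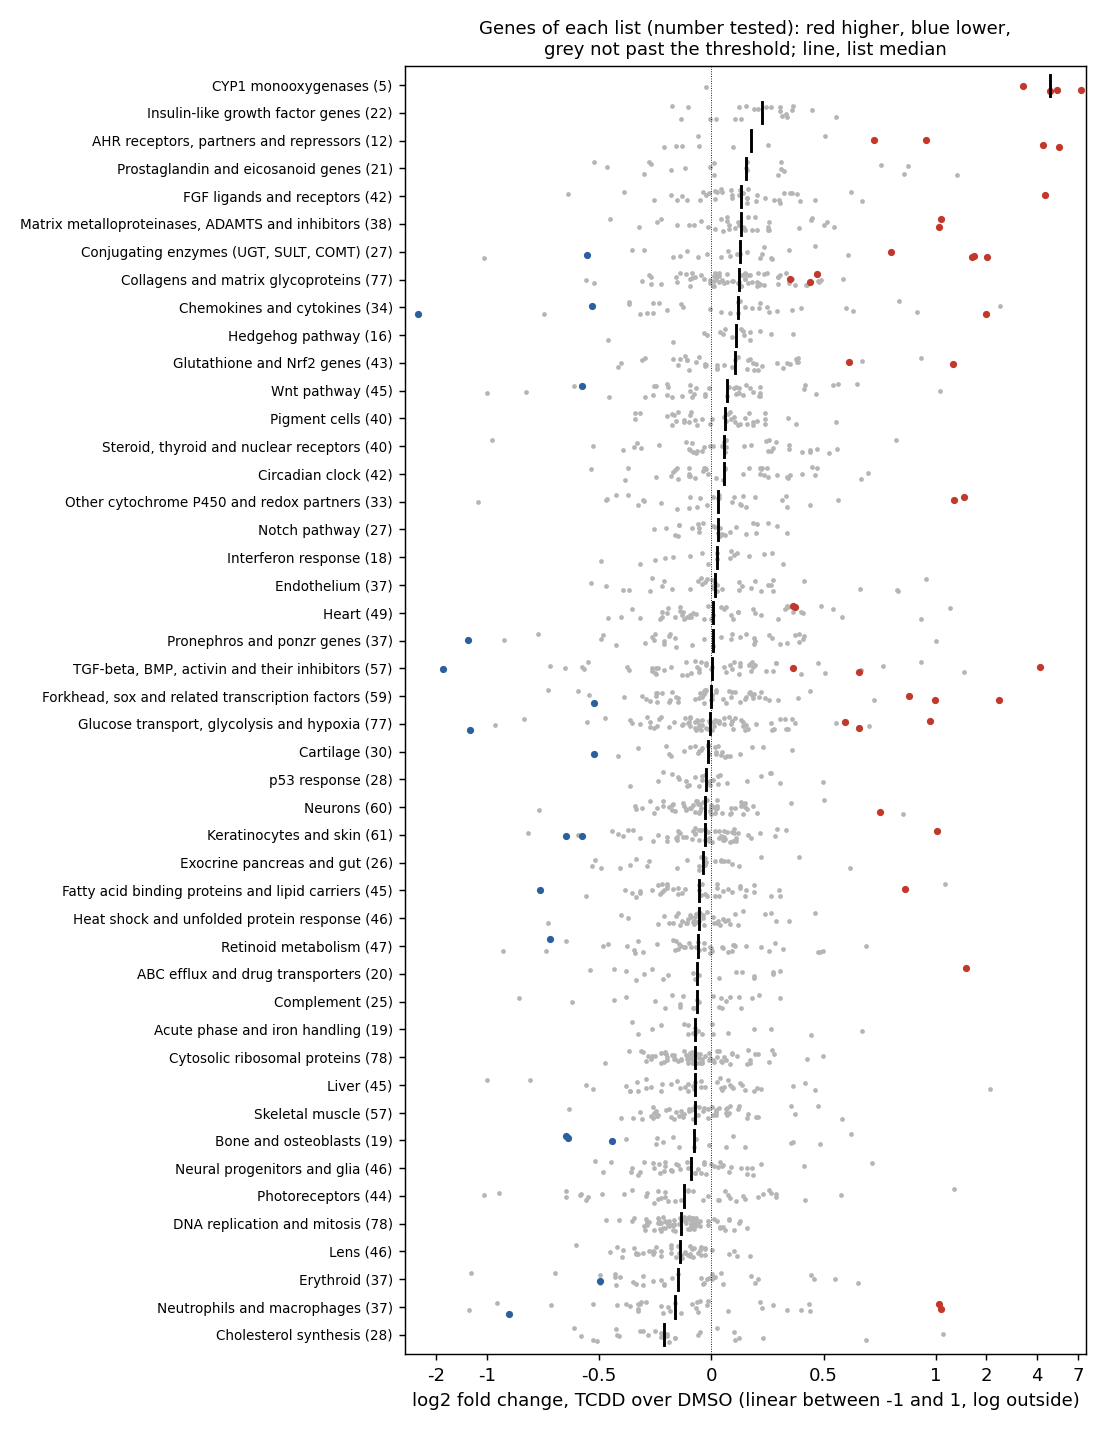
Log2 fold change of TCDD over DMSO (linear between -1 and 1, log outside) for the tested genes of 46 lists, ordered by median, 1 point per gene, with list medians as lines. The CYP1 list has the highest median (4.79), and the median of the other lists lies between -0.21 and 0.23.

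Genes outside the lists made up 75 of the 128 calls. The matricellular gene ctgfb, with its paralog ctgfa, rose in both copies: ctgfb had 63.1, 56.0, 51.0 and 64.8 CPM in TCDD embryos and 17.5, 12.2, 16.1 and 20.2 CPM in DMSO embryos (1.83 ± 0.14, adjusted p = 2.82e-09), and ctgfa, chosen after its values were seen, rose by 0.34 ± 0.07 (adjusted p = 0.0273), lost under 6 settings. Other large rises were mamdc2b (2.26 ± 0.20, adjusted p = 6.48e-08), ncam3 (1.64 ± 0.15, adjusted p = 2.02e-07), pkhd1l1 (1.51 ± 0.14, adjusted p = 2.71e-07) and the cathepsin L gene ctsl.1 (1.51 ± 0.24, adjusted p = 8.45e-04). The transcription factor gene hnf4g rose by 1.68 ± 0.36 (adjusted p = 0.0275), lost under 8. Genes chosen after their values were seen include pappab, for a protease that cleaves insulin-like growth factor binding proteins, at 10.21, 8.03, 9.49 and 9.75 CPM in TCDD embryos and 4.63, 4.36, 3.55 and 1.45 CPM in DMSO embryos (1.41 ± 0.23, adjusted p = 0.0016), the mucin gene muc5.2 (1.42 ± 0.15, adjusted p = 2.32e-06) and the interleukin receptor gene il6r (1.13 ± 0.13, adjusted p = 8.05e-06). The AP-1 subunit gene jun fell by 0.53 ± 0.09 (adjusted p = 0.001), with 88.3, 79.6, 89.6 and 78.0 CPM in TCDD embryos and 125, 120, 114 and 127 CPM in DMSO embryos. Stress gene gadd45ba (-0.74 ± 0.15, adjusted p = 0.0152, lost under 4), mrc1b (-0.70 ± 0.14, adjusted p = 0.0128, lost under 1, without TCDD replicate 4, adjusted p = 0.0646) and dap1b (-0.77 ± 0.15, adjusted p = 0.0089, lost under 2) fell too, as did IL4I1, ENSDARG00000056804 (-0.84 ± 0.19, adjusted p = 0.0347) and rnasel3 (-0.53 ± 0.11, adjusted p = 0.0228), lost under 8 and 7. An induced noncoding RNA, ENSDARG00000097714, chosen after its values were seen, rose by 3.13 ± 0.27 (adjusted p = 4.47e-08). Its mean was 8.145 CPM in TCDD embryos and 0.921 CPM in DMSO embryos. In slincR morphants the means were lower, 1.36 CPM with TCDD and 0.0482 CPM with DMSO, with a log2 fold change of 4.54 ± 0.475. The DMSO mean there is near the floor, so that fold change is uncertain. The change in control morphants minus that in slincR morphants was -1.41 ± 0.62 (edgeR's interaction test, unadjusted p = 0.031), which did not pass after adjustment. The cause of the lower level in slincR morphants was not tested.

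Most of the leading genes were also higher with TCDD in slincR morphants. The same comparison there called 79 genes (0.383%), of which 56 were among the 128, 43.8% of these and 70.9% of the 79. Of the 128, 122 had the same sign in slincR morphants. The change of cyp1a was 7.27 ± 0.13 in control morphants and 7.38 ± 0.13 in slincR morphants. The difference of the 2 responses passed for 0 of 20630 genes by edgeR's interaction test, the one tool used for it, with 617 genes at an unadjusted p under 0.05 (2.99%), and 25 of these were among the 128. Since the 128 were chosen by their response in control morphants, that count is a description. The smallest p among them was that of dap1b, 2.51e-04, with -0.77 ± 0.15 in control and 0.12 ± 0.15 in slincR morphants. The gene pappab had 1.41 ± 0.23 in control and 0.29 ± 0.22 in slincR morphants (unadjusted p = 0.00203), and the gene snphb had 0.95 ± 0.22 in control and -0.39 ± 0.23 in slincR morphants (unadjusted p = 3.21e-04). None of these differences passed after adjustment.

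**Figure D5:**
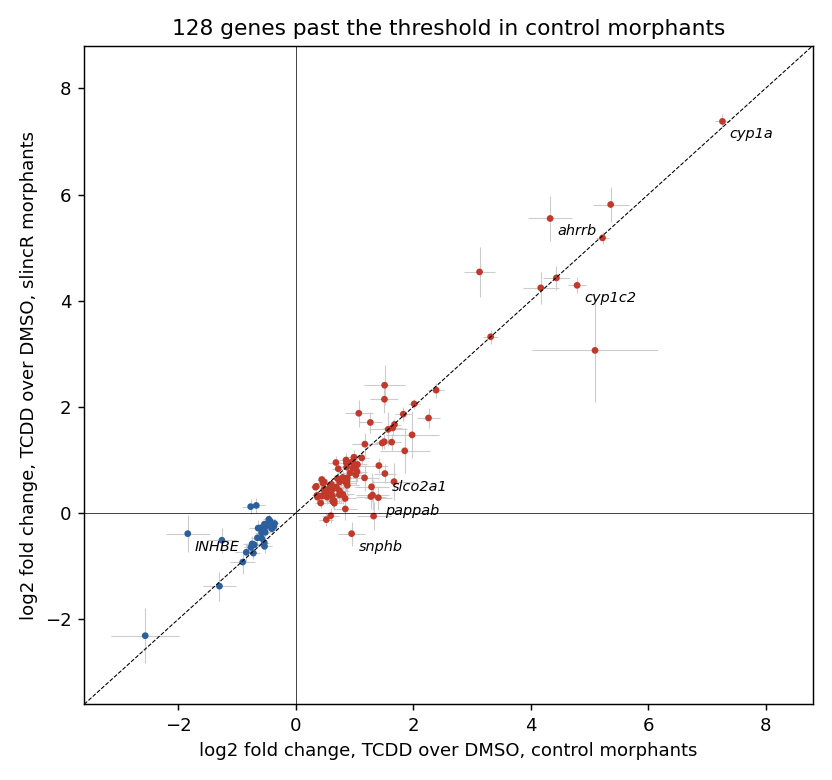
Log2 fold change of TCDD over DMSO in control morphants (horizontal) and in slincR morphants (vertical) for the 128 genes past the threshold in control morphants, red higher and blue lower, with bars of 1 SE and a dashed line of equal response. Of the 128 points 122 have the same sign on both axes.

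The authors' deposited table of the same comparison lists 132 genes, 101 higher and 31 lower. It shares 125 with the 128 found here, 97.7% of the calls and 94.7% of the table. The 7 genes of that table that did not pass here had adjusted p-values up to 0.0587. The 3 found here that are not in it are ENSDARG00000009121, mt-atp8 and IFITM5. Of 13 mitochondrial genes tested, mt-atp8 was the 1 called, with overlapping groups.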

How the data were processed

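Raw gene counts were deposited by the authors for 16 libraries. Per the submitters' processing notes the tools were FastQC, TopHat, SAMtools, HTSeq and edgeR with build GRCz10; their versions, the strand setting and the annotation release are not stated in the sources at hand, so reads of overlapping or antisense genes may be mixed. The authors' deposited table, per the file headers, holds log2 fold changes, mean log2 levels and p-values, and served for comparison of calls and for symbols. Rows that name no gene entered neither library sizes nor tests; reads in no gene were 12.8% to 16.1% of entries in control morphants. Counts were normalised by TMM, filtered by filterByExpr (minimum count of 10, 20630 genes) and fitted in edgeR 4.0.16 in R 4.3.3 with a mean per group over all 16 samples, with 12 residual degrees of freedom, a biological coefficient of variation of 14%, and Benjamini-Hochberg adjustment. SE is the fold change divided by the square root of F. Alternatives used DESeq2 1.42.0, limma 3.58.1 and the settings of the closing section. The fit was tested on simulated data with 200 changed genes and no library set apart, and made 3 false calls. Names come from the authors' table, then a gene table, upper-case names being human ones that paralogs can share, and 1886 of 2045 list symbols were matched. Of these, 440 were matched by the name without its paralog suffix, which can bring in another paralog than the one listed. The members, the 46 lists, the tests and the naming rule were chosen with earlier results of these data known. Named by rule were cyp1a, sox9b, the 20 largest rises and the 20 largest falls among called genes of at least 1 CPM with a name, up to 4 called or else 2 genes per list, and called genes of the cyp, ugt, ahr, fgf, mmp, fox and sox families; not every gene so named is reported here.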

Additional observations from a re-analysis of the deposited data

Results flagged for a closer look

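Of 216 checks for a library far from the other 3 of its group among the named genes, 4 were flagged, where chance flags about 1 in 20. Each is a single library whose gap to its nearest neighbour makes up most of the group's range, past Dixon's critical value. In TCDD replicate 3, cxcl12b measured 37.66 CPM, where the other TCDD libraries lay between 40.7 and 41.1. In TCDD replicate 2, TTN (ENSDARG00000000563) measured 2279 CPM against 2488 to 2505 in the others. In TCDD replicate 4, aurka measured 33.16 CPM against 23.7 to 25.1. In DMSO replicate 3, uox measured 2.5 CPM against 4.00 to 4.24. With all libraries, edgeR's test called none of TTN, aurka and uox. TTN passed without DMSO replicate 2 (adjusted p = 0.0344). The gene uox passed with DESeq2 and without TCDD replicate 3 or DMSO replicate 3 (lowest adjusted p = 0.0116), and aurka passed under no setting.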

How the results depend on the processing

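Over 17 alternative settings, 52 of the 128 calls (47 higher and 5 lower) held under every one, 58 were lost under at least 5, and no call changed direction. Correlations of same-numbered deviations ran from -0.109 to 0.0872. TCDD replicates 1 and 4 were closest to the DMSO library of their own number, and replicates 2 and 3 were not. These few correlations cannot show whether the samples were paired. A fit with the replicate number as a block called 108 genes, 20 of them lower. With only the 8 control morphant samples the count was 69 (56 higher, 13 lower). Adding the no-gene read share as a covariate gave 283, of which 138 were lower and 114 were among the 128; the cause was not tested. DESeq2 called 275 (185 higher, 90 lower). Leaving out single libraries gave 70 to 155 genes (56 to 100 higher, 10 to 55 lower), and 33 to 48 at 2-fold or more. Without both libraries that stood apart, DMSO replicate 4 and TCDD replicate 3, an alternative added after seeing the data, it was 109 (90 higher, 19 lower), 81 of them among the 128. The calls split 76.7% higher with DESeq2 size factors and 51.2% higher with the covariate. Low counts limit the genes under 1 CPM.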

Other observations

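The called genes named here belong to no list and were chosen after their values were seen. The gene pappa2, for a protease of insulin-like growth factor binding proteins, rose and measured 16.97, 18.7, 17.1 and 16.3 CPM in TCDD embryos and 12.8, 12.1, 12.2 and 12.2 CPM in DMSO embryos (0.49 ± 0.11, edgeR adjusted p = 0.0288), a call lost under 11 of 17 alternative settings. The ephrin receptor gene ephb4b had 48.1, 47.4, 46.8 and 45.8 CPM in TCDD embryos and 33.5, 30.1, 32.04 and 34.6 CPM in DMSO embryos (0.53 ± 0.09, adjusted p = 0.00106), with no overlap. The adrenomedullin gene adma rose by 0.59 ± 0.13 (adjusted p = 0.0261, lost under 7 settings) and angpt4, for an angiopoietin, by 0.87 ± 0.20 (adjusted p = 0.0423, lost under 11). Of 37 endothelial marker genes edgeR called 0 (median 0.015), 9 had an unadjusted p under 0.05, limma-voom called 0, and DESeq2 called 2, plvapa with a positive and plvapb with a negative log2 fold change. Over all 20630 genes tested, 2313 had an unadjusted p under 0.05 and DESeq2 called 275. The summed level of that list was 937 to 984 CPM in TCDD embryos and 959 to 985 CPM in DMSO embryos, which overlap. The mean log2 level of its genes did not overlap, at 3.831 to 3.897 in TCDD libraries and 3.756 to 3.821 in DMSO libraries.

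The calpain gene capn3b had 145, 146, 161 and 146 CPM in TCDD embryos and 103, 106, 106 and 114 CPM in DMSO embryos (0.48 ± 0.07, adjusted p = 7.02e-04), and mlip rose by 0.64 ± 0.12 (adjusted p = 0.00449). Both calls held under all 17 settings. Of 57 skeletal muscle genes edgeR, DESeq2 and limma-voom called 0, and 35 had negative log2 fold changes (median -0.075). An unadjusted p under 0.05 was seen for 9 of the 57, against 2313 of all 20630 genes tested. The cell cycle inhibitor gene cdkn1ba rose by 0.44 ± 0.09 (adjusted p = 0.0145, lost under 4). The transcription factor genes six3b and bhlhe22, of the developing eye and brain, fell by 0.40 ± 0.09 and 0.41 ± 0.09 (adjusted p = 0.0452 and 0.0407), lost under 14 and 11 settings. Of 46 neural progenitor and glia genes edgeR called 0 and DESeq2 1, and of 44 photoreceptor genes both called 0.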
